A study of Mus musculus with 4 samples.

Results

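The 8 genes described here (Slc4a1, Rhag, Ermap, Car1, Car2, Hbq1b, Klf1 and Epor) are genes of the red cell lineage, read on arrays of mouse type 1 conventional dendritic cells (cDC1), a subset that presents antigens of engulfed cells to CD8 T cells. They were found by gene symbol, each had 1 probe set, and they are 8 of 17511 named genes on the array. The genes were chosen by values of these same arrays, KO minus WT differences and the XCL1 difference of Hbq1b among them, so their values are descriptions and no test was run. There were 4 female C57BL/6 samples per the labels, from mice aged 10 weeks, 1 array in each group. The groups were wild-type (WT) cells with LPS, WT cells with LPS and recombinant mouse XCL1, XCR1-deficient (KO) cells with LPS, and KO cells with LPS and recombinant mouse XCL1, each agent at 100 ng/ml. All 4 samples had therefore received LPS, a bacterial ligand of Toll-like receptor 4, and no sample without it was analysed here. XCL1 is the chemokine that binds XCR1, the receptor the KO cells lack. With 1 array a group no value has a replicate error, and the number of arrays limits the precision. For the tissue of origin, the number of mice behind a sample, the kind of deletion and how long the cells were treated, no source used here gives an answer.

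Red cells carry oxygen on haemoglobin and carbon dioxide mainly as bicarbonate. Carbonic anhydrases in the cytosol form bicarbonate, and the anion exchanger of the membrane, band 3, swaps it for chloride. Erythropoietin drives the survival of red cell precursors through its receptor, and the transcription factors GATA1 and KLF1 switch on globin, haem and membrane genes as the precursors mature. Dendritic cells are not known for this programme, while blood-rich organs such as spleen and bone marrow hold both kinds of cell. Whether this bears on the present samples, whose tissue is not given, was not tested.

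Of the 8 genes, 5 had a promoter in the RefSeq table (GRCm38.p6), and 4 of these 5 held a GATA motif in the 250 bases before the start. The motif was searched as the word GATA with A or T before it and A or G after it, on both strands, and 26.5% of 32851 promoters of that length hold it. A CACCC-type motif, of the kind KLF factors bind, was searched as CCNCNCCC on both strands. It was present in 1 of the 5, against 45.9% of all promoters. The 4 promoters with a GATA motif are shown because 2 belong to genes that were higher in the KO (Rhag and Ermap) and 2 to dim genes, one a regulator and one a receptor of the lineage (Klf1 and Epor). Capitals mark the matches, GATA motifs as TTATCA or TTATCT since each lies on the opposite strand, and the other capitals in Epor are overlapping CACCC-type matches. A match describes the letters only.
Rhag (chr17:40810899-40811148, + strand): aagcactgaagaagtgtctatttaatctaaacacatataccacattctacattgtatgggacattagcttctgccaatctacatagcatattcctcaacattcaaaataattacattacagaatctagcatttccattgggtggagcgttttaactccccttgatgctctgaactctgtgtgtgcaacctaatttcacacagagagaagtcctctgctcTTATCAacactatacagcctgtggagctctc
Ermap (chr4:119189996-119190245, - strand): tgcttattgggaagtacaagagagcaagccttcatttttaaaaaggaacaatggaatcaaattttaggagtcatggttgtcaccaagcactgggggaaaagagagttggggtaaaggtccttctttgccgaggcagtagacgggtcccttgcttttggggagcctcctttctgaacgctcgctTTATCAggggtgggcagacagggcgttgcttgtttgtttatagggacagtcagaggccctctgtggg
Klf1 (chr8:84901732-84901981, + strand): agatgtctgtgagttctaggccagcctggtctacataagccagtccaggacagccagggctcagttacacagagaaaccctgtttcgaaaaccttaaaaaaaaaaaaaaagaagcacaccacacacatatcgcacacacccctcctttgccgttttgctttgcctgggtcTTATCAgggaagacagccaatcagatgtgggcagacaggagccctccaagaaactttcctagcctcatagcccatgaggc
Epor (chr9:21963577-21963826, - strand): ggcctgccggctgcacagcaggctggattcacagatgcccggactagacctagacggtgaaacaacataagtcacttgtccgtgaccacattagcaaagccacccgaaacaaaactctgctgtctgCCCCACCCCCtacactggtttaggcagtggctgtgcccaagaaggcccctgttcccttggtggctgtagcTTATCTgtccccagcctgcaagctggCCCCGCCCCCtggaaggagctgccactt

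Hbq1b, the fifth, held neither motif in these 250 bases. The GATA match began 31 bases before the start in Rhag, 54 in Epor, 67 in Ermap and 80 in Klf1.

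All levels below are log2 signals, on which 1 unit is a doubling, and a difference is one log2 signal minus another. Levels of different genes are not compared, because probes differ in brightness. A signal limit was set at 5.43, the median of all values, since the files give no detection flags. The words higher and lower in a count mean a gap of 1.5-fold or more between 2 arrays (0.58 log2 units) for a gene that reached the limit on 1 array or more, which 11068 named genes did. Of the 8 erythroid genes, 6 did, and Klf1 and Epor lay below it on every array. Where 1 of the 2 signals lay below the limit, the limit stands in for the dim signal and the fold is a lower bound ("at least").

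The array medians lay between 5.40 and 5.44. The targeted gene Xcr1 read 6.42 and 7.19 on the WT arrays and 5.54 and 5.11 on the KO arrays, the direction its label gives. Of 13 named cDC1 markers 12 passed the limit, among them Irf8, Batf3, Flt3 and Cd8a, and Itgae was below it on every array. Xist read 7.95 and 7.91 in WT but 4.64 and 4.57 in KO, while the Y chromosome genes Kdm5d, Eif2s3y and Uty read 7.01 to 8.89 on all 4 arrays. These values go against the label of female mice for every array, so no result can be given without such arrays. None of the 8 genes is on a sex chromosome (they lie on chromosomes 3, 4, 8, 9, 11 and 17). The array names in the labels carry a prefix that is shared by both arrays of a genotype and differs between the genotypes, so this prefix, the Xist difference and the genotype cannot be told apart. Over all genes, KO minus WT with LPS gave 1.01% higher and 1.00% lower. With LPS and XCL1 it gave 1.69% higher and 1.79% lower. Subtracting from each array the median of the genes past the limit added 0.10 to each genotype difference and changed the split from 112 higher and 111 lower to 208 and 51 with LPS, and from 187 and 198 to 333 and 91 with LPS and XCL1. As a scale for these values, genes read by 2 probe sets differed between them with an SD per probe set of 0.22 and 0.24 in the genotype pairs. Both probe sets are read on the same arrays, so this SD holds no variation between arrays, mice or cell preparations.

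The first question was how the erythroid genes differed between XCR1-deficient and WT cells. Slc4a1, Car1 and Rhag were higher in the KO in both pairs of arrays, Car2 in the pair with LPS, and Ermap in the pair with LPS and XCL1. That made 4 of the 8 called higher in each pair and none lower, beside the 1.01% and 1.69% of all genes above. For 5 of the 6 genes past the limit, both KO signals lay above both WT signals, as they did for 18.9% of all genes past the limit, and the exception was Hbq1b. The dim genes Klf1 and Epor also read higher on both KO arrays, by gaps of 0.13 and 0.06. The 3 genes called in both pairs are among 0.407% of all genes higher in both. These contrasts were in view when the genes were chosen, so the shares describe and support nothing. In bulk samples, more (or fewer) cells of a type and more (or less) RNA per cell cannot be told apart.

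**Figure D1:**
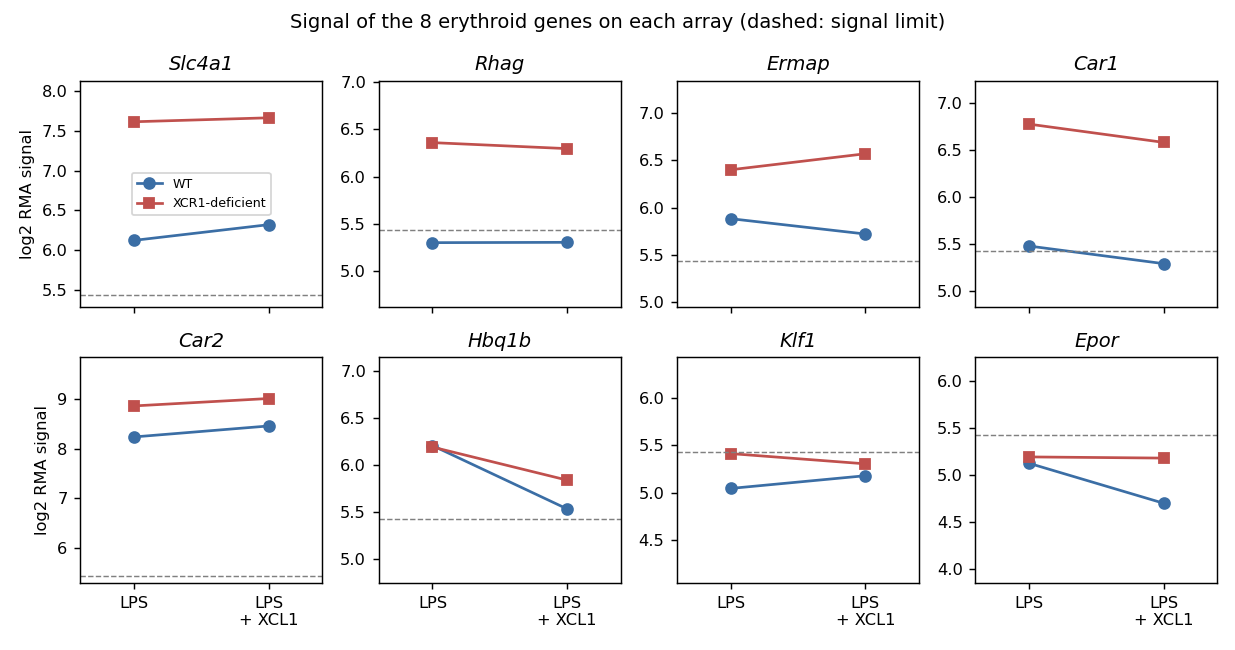
Log2 RMA signal (vertical axis, with its own range in each panel) of each erythroid gene with LPS and with LPS and XCL1, for WT (circles) and XCR1-deficient cells (squares), 1 array a point, with the signal limit of 5.43 dashed. The KO line runs above the WT line in every panel but that of Hbq1b, where the LPS arrays read 6.21 and 6.19.

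Among the membrane genes, Slc4a1 encodes band 3, the anion exchanger and main membrane protein of red cells. Its signal was 6.12 on the WT array with LPS, 6.32 on WT with LPS and XCL1, 7.62 on KO with LPS and 7.67 on KO with LPS and XCL1. Both KO arrays were high and both WT arrays low, with 1.30 between the nearest 2, and the WT signals lay above the limit. The difference was 1.496 (2.82-fold) with LPS and 1.35 (2.55-fold) with LPS and XCL1, rank 3 and rank 4 among the 11068 genes.

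Rhag encodes the Rh-associated glycoprotein, which carries ammonia or gas across the red cell membrane and holds the Rh complex together. It read 5.30 on both WT arrays, below the limit, and 6.36 and 6.30 on the KO arrays with LPS and with LPS and XCL1. The WT arrays were thus at the same dim level and the KO arrays clearly above the limit. Measured differences were 1.06 and 1.00, and against the limit Rhag was at least 1.91-fold higher with LPS and at least 1.82-fold higher with LPS and XCL1. Ermap, an erythroid membrane protein of the butyrophilin-like family that carries a blood group antigen in humans, read 5.88 and 5.72 in WT and 6.40 and 6.57 in KO. The groups did not overlap, and the gap of 0.52 between the LPS arrays (1.43-fold) was below the threshold while 0.85 with LPS and XCL1 (1.81-fold) was above it. With arrays centred on their gene medians Ermap passed in both pairs, at 0.62 and 0.95.

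The carbonic anhydrases are enzymes of the red cell cytosol, and Car2 is also common in other cells. Car1 read 5.48 and 5.29 in WT, at and below the limit, and 6.77 and 6.58 in KO. The KO arrays were both high, by 1.29 in each pair. Car1 was 2.45-fold higher with LPS and at least 2.22-fold higher with LPS and XCL1. Car2 gave 8.24 and 8.46 in WT and 8.86 and 9.01 in KO, all far above the limit. Again no KO array overlapped a WT array, but the differences were small, 0.63 (1.54-fold) with LPS and 0.55 (1.47-fold) with LPS and XCL1, on either side of the threshold. With centred arrays both passed, at 0.73 and 0.66.

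The other 3 genes showed no called genotype difference. Hbq1b, a theta-globin gene at the end of the alpha-globin cluster, read 6.21 and 5.53 in WT and 6.19 and 5.84 in KO, so the groups overlapped. Its differences were -0.02, which turned to 0.09 with centred arrays, and 0.31. The near-identical copy Hbq1a, which may share probes with it, was below the limit on every array (4.29 to 4.71). Klf1, the erythroid Kruppel-like factor, read 5.04 and 5.18 in WT and 5.41 and 5.30 in KO, and Epor, the erythropoietin receptor, 5.13 and 4.70 in WT and 5.19 and 5.18 in KO. Both stayed under the limit, where no fold is given. The transcription factor and the receptor of the lineage were thus dim on all 4 arrays, while 5 of the other 6 genes were brighter in KO.

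**Figure D2:**
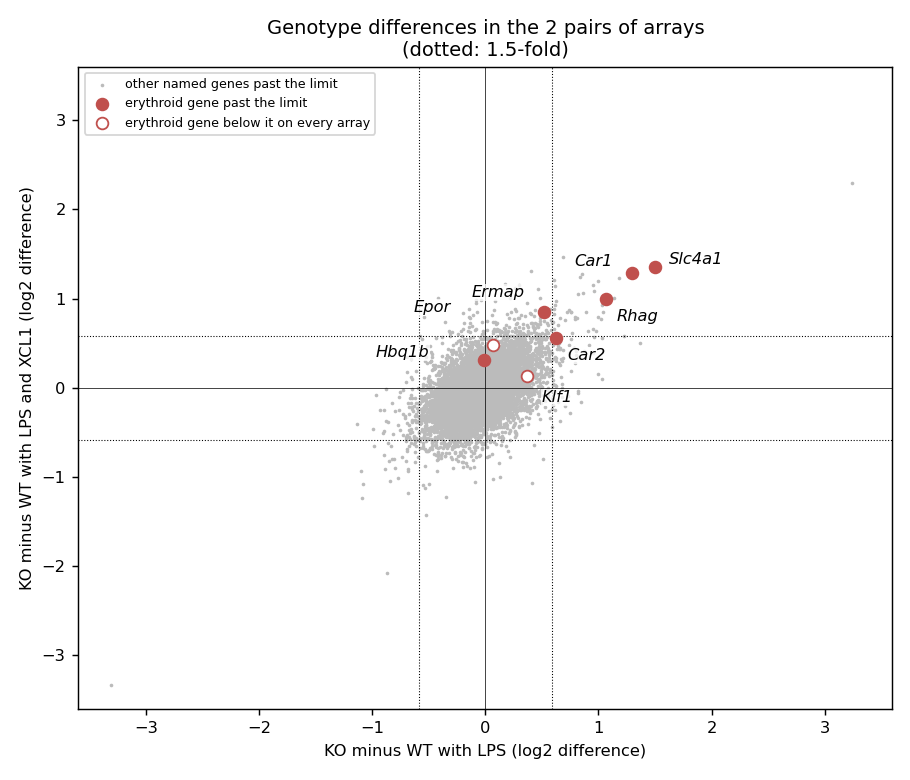
Log2 difference KO minus WT with LPS (horizontal axis) against that with LPS and XCL1 (vertical axis) for the 8 erythroid genes (red, open where below the limit on every array) and the other named genes past the limit (grey), with dotted lines at 1.5-fold. Slc4a1, Car1 and Rhag lie beyond both upper lines, Car2 and Ermap beyond one, and Klf1, Epor and Hbq1b within the cloud.

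The second question was whether XCL1 changed these genes, and in which genotype. The only called member was Hbq1b, lower in WT by 0.67 on the log2 scale (1.59-fold, from 6.21 to 5.53). That value was rank 12 from the lowest of the genes past the limit, and it was one of those that chose the genes. In KO cells Hbq1b went from 6.19 to 5.84, a difference of -0.35 below the threshold. The difference between these XCL1 effects, 0.32, was not tested. Over all genes 0.226% were higher and 0.334% lower with XCL1 in WT, and 0.470% and 0.542% in KO. Centring changed the split from 25 higher and 37 lower to 13 and 65 in WT and from 52 and 60 to 25 and 88 in KO, and cyclic loess gave 30 and 28 in WT. Hbq1b remained the 1 member called in WT in both settings.

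For the genes that were higher in the KO, the XCL1 differences were small beside the genotype differences. Slc4a1 differed by 0.20 in WT and 0.05 in KO (-0.02 with centred arrays), Rhag by 0.00 (-0.06 with centred arrays) and -0.06, and Car1 by -0.19 in each genotype. Car2 gave 0.22 and 0.15. Ermap gave -0.16 and 0.17, opposite signs that neither reached the threshold. Of the dim genes, Epor differed by -0.42 in WT and -0.01 in KO and Klf1 by 0.13 and -0.11. In these comparisons the central 98% of all genes spanned -0.46 to 0.46 in WT and -0.49 to 0.51 in KO, so Hbq1b in WT was the 1 member outside that span. An XCL1 difference shares an array with a genotype difference, so the values are given side by side only.

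**Figure D3:**
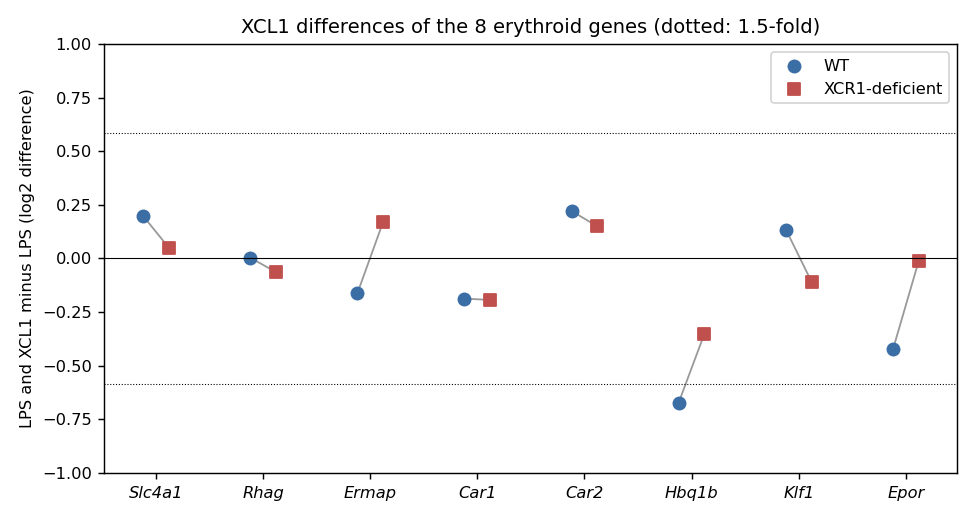
Log2 difference between the array with LPS and XCL1 and the array with LPS (vertical axis) for each erythroid gene (horizontal axis), in WT (circles) and XCR1-deficient cells (squares), with dotted lines at 1.5-fold. The WT point of Hbq1b, at -0.67, is the 1 point beyond a dotted line.

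Other genes of the lineage were then read by role, without the 8 members. Globins came first, because they make up most of the RNA of maturing red cells. Adult globin was read by 5 probe sets that each list several near-identical genes, so they are in no count and cannot be given to 1 gene. The brighter of the 2 alpha-globin probe sets (Hba-a1 and Hba-a2) read 9.71 and 9.85 in WT and 11.2 and 10.9 in KO, a difference of 1.48 with LPS and 1.08 with LPS and XCL1. The other read 6.67 and 6.47 in WT and 7.68 and 7.09 in KO. Of the 3 beta-globin probe sets (Hbb-b1, Hbb-b2 and Hbb-bs), the one with the widest gap read 4.65 and 4.29 in WT and 6.46 and 6.50 in KO. The next read 5.14 and 5.25 in WT and 6.11 and 6.44 in KO, and the dimmest stayed below the limit on every array. All 5 had both KO signals above both WT signals, as did 18.9% of the named genes past the limit. The 4 past the limit were higher in KO by 1.5-fold or more in both pairs, beside 0.407% of those genes. The beta-globin probe sets among these 4 passed the limit only on the KO arrays, so their measured gaps are less certain. Embryonic globins (Hba-x, Hbb-y, Hbb-bh1, Hbb-bh2) were below the limit on every array.

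Membrane skeleton and blood group genes were the fullest list. Of its 13 members past the limit, 3 were higher with LPS and 1 with LPS and XCL1, none was lower, and the medians were 0.18 and 0.16 beside -0.05 and -0.04 over all genes. Ank1, the ankyrin that ties band 3 to the spectrin skeleton, read 5.73 and 5.77 in WT and 6.64 and 6.25 in KO, higher by 0.91 (1.88-fold) with LPS and by 0.48 with LPS and XCL1. A second Ank1 probe set, below the limit on every array, gave 0.17 and 0.48. Sptb, erythroid beta-spectrin, read 5.46 and 5.81 in WT against 6.14 and 6.11 in KO (0.68 and 0.30). The actin-bundling protein gene Dmtn read 6.44 and 6.43 against 7.04 and 6.91 (0.60 and 0.48). Epb42, protein 4.2 of the band 3 complex, was below the limit in WT at 4.97 and 5.03 and above it in KO at 5.54 and 5.67. Its measured differences of 0.58, just under the threshold, and 0.64 came to 0.11 and 0.24 against the limit. Each of these 4 genes read higher on both KO arrays than on both WT arrays, as did 18.9% of all genes past the limit. They were named because they were called, which favours such a gap. Of the 13 genes, 8 had a difference above 0 with LPS and 9 with LPS and XCL1, beside 39.9% and 43.2% of all genes past the limit. Gypc (9.25 and 9.35 in WT, 9.13 and 9.11 in KO) and Icam4 (5.59 and 5.64 in WT, 5.41 and 5.35 in KO) did not follow the 4 called genes. Xk gave -0.12 and -0.49, Tspan33 -0.49 and 0.03, and Rhd, the Rh antigen gene, 0.23 and -0.13.

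Haem synthesis and iron uptake genes had 0 of 11 called in either pair, with medians of 0.21 and 0.00. Over all genes 1.01% and 1.69% were higher and 1.00% and 1.79% lower, so a list this small holds few or no calls at those shares. Slc25a37, the mitochondrial iron importer, gave 0.36 and 0.26, and Fech, the enzyme that inserts iron into haem, 0.21 and 0.33. With centred arrays 2 of the 11 were higher with LPS, beside 1.88% of all genes. Outside these counts, the probe set that lists Alas2, the erythroid enzyme of the first step of haem synthesis, together with the DNA repair gene Apex2 read 5.24 and 4.88 in WT, below the limit, and 6.21 and 6.18 in KO. Its measured differences were 0.96 and 1.30, and they cannot be given to either gene. Among 12 transcription factors past the limit, Hemgn, a nuclear protein of erythroid precursors, was higher in both pairs, as were 0.407% of all genes. It read 5.41 and 5.46 in WT, near the limit, and 6.17 and 6.30 in KO, a difference of 0.76 (0.74 against the limit) and 0.85. Tal1 gave 0.02 and 0.14 and Lmo2 0.04 and 0.26, while Gata1, Gata2 and Nfe2 were below the limit on every array. Gfi1b, a transcriptional repressor that acts in erythroid and platelet precursors, read 6.50 and 5.89 in WT without and with XCL1, a difference of -0.61. In KO it read 6.58 and 6.30, and it was named after its values were seen.

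Erythropoietin signalling genes had 0 of 9 called in either pair, with medians of 0.04 and 0.10. Over all genes 1.01% and 1.69% were higher and 1.00% and 1.79% lower, shares at which so few genes hold few or no calls. Jak2, the kinase that the receptor uses, was bright on every array and gave 0.20 and 0.28, and Kit, the stem cell factor receptor, 0.13 and 0.40. Epo itself was below the limit. Of 7 red cell enzyme and late differentiation genes, none was higher and Cat, which encodes catalase, was lower with LPS and XCL1, at 10.6 in WT and 9.80 in KO (-0.78), and gave -0.31 with LPS. These counts stand beside the same shares of all genes, and the list medians were -0.14 and -0.15. Between the genotypes, among genes of these lists that have a probe set of their own, the higher ones beyond the members were membrane genes and Hemgn, and the lower one was Cat.

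**Figure D4:**
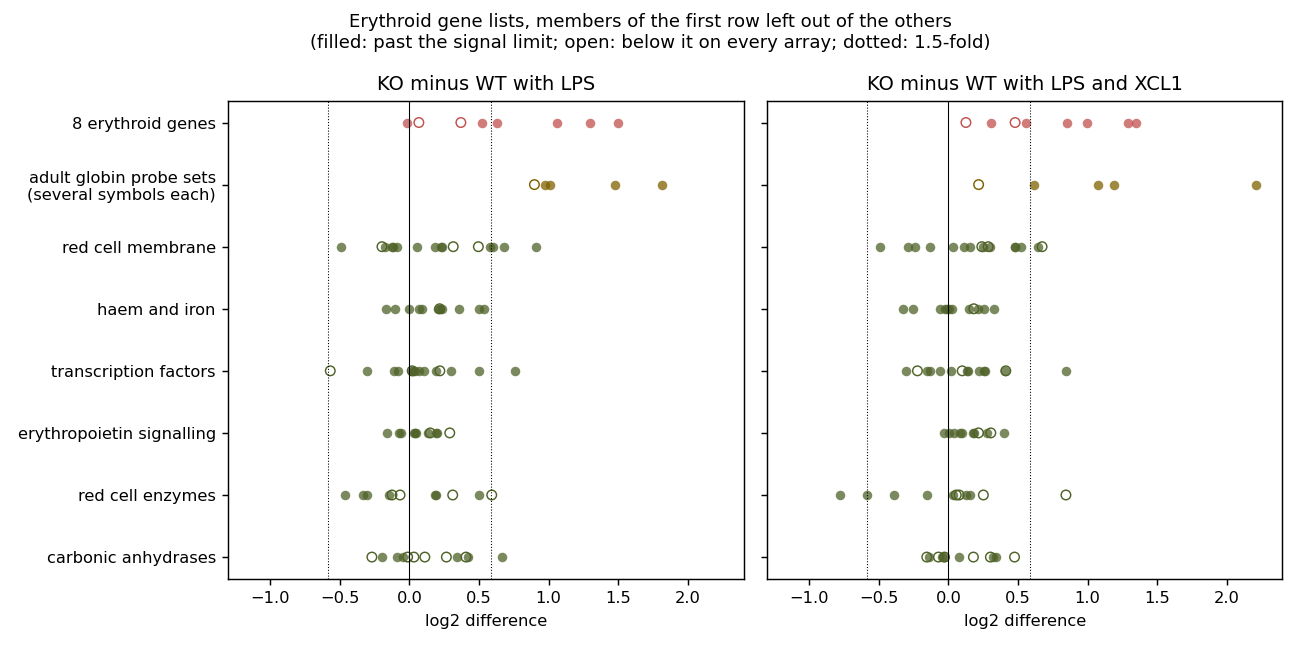
Log2 difference KO minus WT (horizontal axis) with LPS (left) and with LPS and XCL1 (right) for each gene of the erythroid lists (rows) and for the 5 adult globin probe sets, filled where past the signal limit and open where below it on every array, with dotted lines at 1.5-fold. With LPS the rightmost points are 1.496 among the 8 erythroid genes, whose lowest is -0.02, 1.81 among the globin probe sets and 0.91 among the membrane genes.

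Relatives from the gene families of the members were read beside 1.01% and 1.69% of all genes higher and 1.00% and 1.79% lower. Lists this small hold few or no calls at such shares, so their counts only describe. Of 6 other carbonic anhydrases past the limit, 1 differed by 1.5-fold, Car5b with LPS (0.67), and both of its LPS signals, 4.69 and 5.36, were below the limit. Car13, the neighbour of Car1 and Car2 on chromosome 3, gave 0.34 and 0.34. None of the 4 other SLC4 transporters past the limit was called, with medians of -0.09 (0.01 with centred arrays) and -0.14, and none of the 14 Kruppel-like factors past it, where Klf2 gave -0.39 and -0.32 and Klf8 -0.33 and -0.25. The other Rh family members past the limit, Rhbg and Rhd, stayed within 1.5-fold, as did Btn1a1 (0.20 and 0.30) and Btnl2 (-0.31 and -0.58) among the relatives of Ermap.

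Genes whose 4-array profile was most like that of a member were found by Euclidean distance, after subtracting the gene's own mean. For Slc4a1 they were Mid1 (0.248), Car1 (0.348) and H2-Q10 (0.364), and for Car1 they were H2-Q10 (0.0992), Ifng (0.275) and Itga1 (0.289). Rhag lay nearest to Ido2 (0.0307), Itga1 (0.0558) and Cmpk2 (0.119). Car2 lay nearest to Trim30c (0.0630), Dpy19l1 (0.0948) and Mlkl (0.0982), and Ermap to Cxcl11 (0.0346), Rsad2 (0.0428) and Cxcl2 (0.0612). Among the 6 members past the limit the closest pair was Car2 and Ermap (0.288) and the next Car1 and Rhag (0.309). Each distance rests on 4 arrays.

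Markers of other cell types also differed between the genotypes, and their part in the erythroid differences was not tested. Over all genes past the limit, 39.9% of the differences were above 0 with LPS and 43.2% with LPS and XCL1. The shares of all genes called were 1.01% and 1.69% higher and 1.00% and 1.79% lower. The 7 named erythroid markers, of 15 listed, had a mean log2 signal of 4.91 and 5.01 in WT and 5.29 and 5.39 in KO. Gata1, Kel, Tspo2 and Trim10 were below the limit on every array. Of the 3 past the limit, 1 was higher with LPS (Hemgn) and 2 with LPS and XCL1 (Hemgn and Epb42). Epb42 was below the limit in WT, and Rhd was called in neither pair (0.23 and -0.13). B cell markers read 7.97 and 8.04 in WT and 7.45 and 7.47 in KO, with all 10 differences below 0 in both pairs and 3 of the 10 lower with LPS (Cd79b, Cr2 and Fcer2a) and 4 with LPS and XCL1 (these and Cd79a). T cell markers read 6.48 and 6.44 in WT and 6.07 and 6.00 in KO, with 2 of 8 past the limit lower in each pair (Cd3e and Cd3g). Neutrophil markers read 6.28 and 6.33 in WT and 6.59 and 6.70 in KO, with 1 of 8 past the limit higher with LPS (Camp) and 3 with LPS and XCL1 (S100a8, S100a9 and Ltf), and Ly6g and Retnlg were below the limit. Platelet markers read 5.10 and 5.05 in WT and 5.30 and 5.17 in KO, with 1 of 4 past the limit higher with LPS (Gp9) and none with LPS and XCL1, and Pf4, Ppbp, Gp5, Gp6 and Clec1b below the limit. Mast cell and basophil markers read 5.38 and 5.37 in WT and 5.50 and 5.54 in KO, with Hdc higher in both pairs and Ms4a2, Fcer1a, Gata2, Il4 and Prss34 below the limit. Iron-recycling macrophage markers (6.40 and 6.39 in WT, 6.41 and 6.51 in KO) and progenitor markers (6.10 and 6.02 in WT, 6.06 and 6.10 in KO) had no called gene. The cDC1 markers read 8.44 and 8.54 in WT and 8.34 and 8.36 in KO, and the only one called was the targeted gene Xcr1, lower in both pairs. These means include Xcr1, whose differences were -0.87 and -2.08. The median difference of the 12 cDC1 markers past the limit was -0.06 and -0.09, beside -0.05 and -0.04 over all genes.

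**Figure D5:**
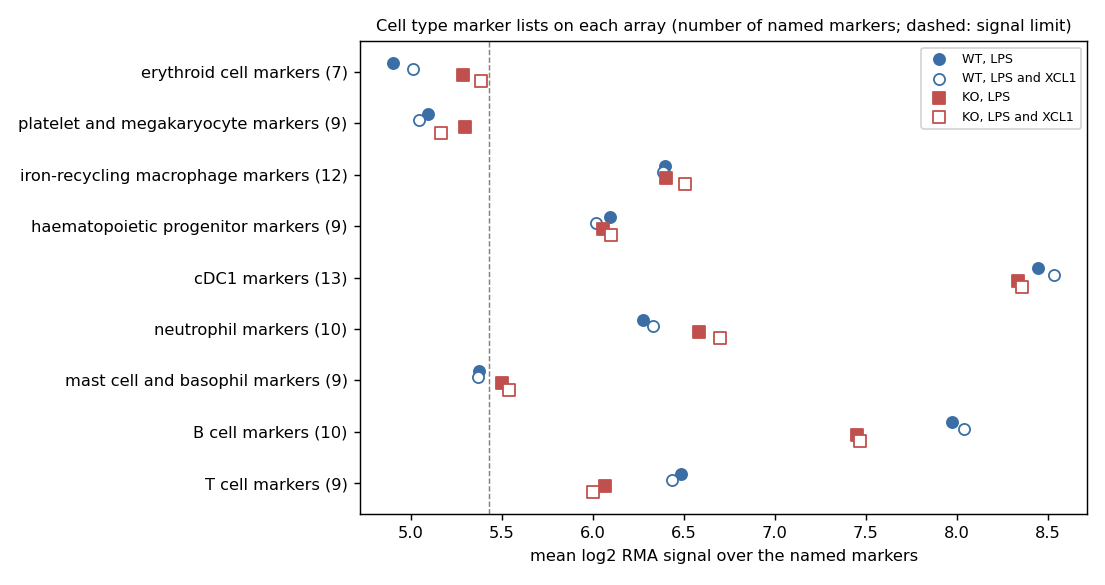
Mean log2 RMA signal (horizontal axis) over the named markers of each cell type (rows, number of markers in brackets) on the 4 arrays, circles for WT and squares for KO, filled for LPS and open for LPS and XCL1, with the signal limit dashed. Positions are to be compared within a row. KO lies to the right of WT for erythroid, neutrophil, platelet, mast cell and basophil, and, by little, iron-recycling macrophage markers. It lies to the left for B cell, T cell and cDC1 markers, and the genotypes overlap for progenitor markers.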

How the data were processed

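Total RNA was read on MoGene whole-transcript arrays, 1 per sample. The authors deposited 1 log2 signal for each gene-level probe set, made with RMA per the labels. RMA equalises the arrays, so a shift of most genes cannot be seen. No source used here names the software or the annotation build.

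Of 41345 probe sets, 23521 list 1 gene symbol, 1814 several and 16010 none here. Probe sets of predicted genes, small RNAs, olfactory receptors and receptor segments (4844) were left out. A gene read by more than 1 probe set was taken at its brightest, by mean signal. Of the 18677 kept probe sets, RefSeq (GRCm38.p6) held 18660 by gene ID. Differences between single arrays were counted at 1.5-fold, with no test. The counting code was run on simulated data with the same noise for every gene. That run checks the code and does not measure the error of these arrays. Cyclic loess used limma 3.58.1 (span 0.7, 3 iterations). The alternatives were a 2-fold threshold, no or a stricter limit, centred arrays, the mean of probe sets, and dim signals raised to the limit. Genomic neighbours were added after the data were seen. The members and lists were chosen with earlier results of these data known. Named were all members, genes of a pathway list called in a genotype pair (otherwise the 2 with the widest mean genotype difference), and the 3 nearest profiles of members with a mean genotype difference of 1.5-fold. Of marker lists, called and below-limit genes were named. Other genes named as examples were chosen after their values were seen.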

Additional observations from a re-analysis of the deposited data

Results flagged for a closer look

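Opposite signs under the same contrast occurred in 4 members, and none of these differences was tested. XCL1 in KO minus XCL1 in WT was 0.33 for Ermap, -0.24 for Klf1 and -0.06706 for Rhag. For Hbq1b, the genotype difference with LPS and XCL1 exceeded that with LPS by 0.32. For Ermap, Klf1 and Rhag each XCL1 difference lay within 1.5-fold, as did both genotype differences of Hbq1b. With centred arrays the opposite signs were lost for Rhag (-0.06 and -0.13) and Hbq1b (0.09 and 0.41).

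Signal outside the counted genes included 6 probe sets that list several genes, 5 of adult globins and 1 of Alas2 and Apex2. These 6 were picked because they were 1.5-fold or more higher in KO with LPS and had both KO signals above both WT signals. That all 6 read higher in KO was therefore fixed by the choice and is no result. With LPS the differences were 1.01 and 1.48 for the alpha-globin probe sets and 0.98, 1.81 and 0.90 for the beta-globin probe sets, of which the one at 0.90 was below the limit on every array. The probe set of Alas2 and Apex2 differed by 0.96.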

How the results depend on the processing

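Counts of members called at 1.5-fold were 4 and 4 in the genotype pairs, 1 for XCL1 in WT and 0 in KO. With the stricter limit on signal (6.91) only Slc4a1 and Car2 were left to count, and the counts were 2 with LPS, 1 with LPS and XCL1 and 0 for XCL1 in WT. Over all genes past that limit 0.753% and 1.51% were higher in the genotype pairs. At a 2-fold threshold the counts were 3 with LPS (Slc4a1, Car1 and Rhag), 2 with LPS and XCL1 (Slc4a1 and Car1) and 0 for XCL1 in WT. Over all genes 0.163% and 0.226% were higher at 2-fold in the genotype pairs. With no limit, cyclic loess, centred arrays, the mean of probe sets or dim signals raised to the limit, the counts stayed within 1.5 times, and no called member changed sign. Of 128 recomputed member differences, 125 moved by less than the SD between probe sets of a gene, and the other 3 were those of Klf1 and Epor once raised to the limit. Much of this was fixed in advance. Each member has 1 probe set, so the mean of probe sets repeated its values. Centring added 0.10 to every genotype difference and -0.07 to every XCL1 difference, less than that SD. Raising dim signals left members above the limit on every array as they were. Counts over all genes fell from 112 and 111 to 18 and 5 with LPS at 2-fold. No paired analysis was possible because each group has 1 array, and for the same reason no array could be left out. Signals of Klf1, Epor and the WT signals of Rhag lie near or under the limit, so their differences are less certain.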

Other observations

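The chromosomal neighbours of the erythroid genes were read as well. Taking the 2 nearest named genes past the signal limit on each side of each member, in RefSeq order, gave 28 neighbours that are not members. None of these 28 was higher at 1.5-fold in the KO in either pair, and their median differences were -0.02 with LPS and -0.04 with LPS and XCL1. Over all genes past the limit 1.01% and 1.69% were higher and the medians were -0.05 and -0.04, so in higher calls and medians these neighbours lay near the background. Lower were 0 of the 28 with LPS and 2 with LPS and XCL1, beside 1.00% and 1.79% of all genes. The 2 that were lower with LPS and XCL1 were Zfp691 (-0.78) and P3h1 (-0.71), both beside Ermap, which was higher by 0.85 in that pair. P3h1 was also the 1 neighbour past 1.5-fold with XCL1 in WT (0.73). Beside Slc4a1, Rundc3a gave 0.37 and 0.27, the first of these the highest LPS difference of the 28. Atxn7l3 gave 0.20 and -0.004, Ubtf 0.13 and 0.09, and Slc25a39, a mitochondrial carrier, -0.21 and -0.35.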
